A study of Homo sapiens with 9 samples.

Results

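ABCB1 encodes P-glycoprotein, the efflux pump of classical multidrug resistance, and the 10 genes described here lie around it in band q21 of the long arm of human chromosome 7. They were taken by gene symbol as ABCB1, ABCB4, CROT, SLC25A40, DBF4, RUNDC3B, DMTF1, KIAA1324L (ELAPOR2 in RefSeq), SRI and CDK14, and all 10 were found among the 20637 genes of the table. Their transcripts were measured in HL-60, a line grown from a human promyelocytic leukaemia, a form of acute myeloid leukaemia. HRA cells are HL-60 cells resistant to cytarabine (Ara-C), grown with 100 nM of the drug. HRD cells are HL-60 cells resistant to daunorubicin (DNR), grown with 30 nM of it. Parental HL-60 cells had no drug named for them, and all 3 groups were otherwise cultured in the same serum-supplemented medium. Each group had 3 biological replicates, from a single resistant line for each drug, and whether a line is 1 clone is not given in the labels. Resistance and the presence of the drug cannot be told apart in this design. The labels do not say how the replicates were separated, so the p-values measure the spread between these libraries, which may be partly technical.

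P-glycoprotein uses ATP to move hydrophobic drugs out of the cell. Anthracyclines such as daunorubicin are among its classical substrates, while cytarabine, a hydrophilic nucleoside analogue, is not counted among them. In many drug-selected cell lines the stretch of chromosome 7 that holds ABCB1 is amplified, and its neighbours are then overexpressed with it. Sorcin, the product of SRI, was first described as such a co-amplified protein. The genes around ABCB1 were examined for whether the region as a whole carried more transcript in either resistant line and which of its genes moved apart from the others.

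The letters before the start sites of 5 of the genes are shown first, so that ABCB1, which had almost no reads in these cells, can be set beside some of its expressed neighbours. RefSeq windows of GRCh38.p14, from 250 bases before to 50 bases after a start, were matched by symbol for 9 of the 10 genes, 13 windows in all. ABCB4 had no entry. SLC25A40 and DBF4 start on opposite strands with 132 bases between their starts, so these letters, chr7:87876361-87876492 on the plus strand, lie upstream of both. Capitals mark the GC box (GGGCGG, or CCGCCC on the other strand) and the CCAAT box (CCAAT, or ATTGG on the other strand).
SLC25A40 and DBF4: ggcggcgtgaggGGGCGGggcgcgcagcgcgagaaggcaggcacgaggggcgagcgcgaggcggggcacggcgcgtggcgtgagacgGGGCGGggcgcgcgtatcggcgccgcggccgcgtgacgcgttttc
The 250 bases before the downstream of the 2 ABCB1 starts, chr7:87600885-87601134 on the minus strand, are those of the gene with almost no reads.
ABCB1: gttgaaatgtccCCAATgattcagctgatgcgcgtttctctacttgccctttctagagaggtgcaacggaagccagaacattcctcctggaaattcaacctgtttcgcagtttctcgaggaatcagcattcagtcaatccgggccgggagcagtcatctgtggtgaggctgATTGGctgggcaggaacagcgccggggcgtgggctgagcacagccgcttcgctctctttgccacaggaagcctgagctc
RUNDC3B starts on the opposite strand from ABCB1, and the 250 bases before it are chr7:87628148-87628397 on the plus strand.
RUNDC3B: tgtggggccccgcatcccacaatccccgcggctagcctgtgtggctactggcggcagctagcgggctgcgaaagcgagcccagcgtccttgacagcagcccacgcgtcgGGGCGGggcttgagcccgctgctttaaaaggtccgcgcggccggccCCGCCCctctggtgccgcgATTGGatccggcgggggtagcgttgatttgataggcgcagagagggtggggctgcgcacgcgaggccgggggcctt
KIAA1324L had the largest called change of the region, and the 250 bases before its upstream start are chr7:87059655-87059904 on the minus strand.
KIAA1324L: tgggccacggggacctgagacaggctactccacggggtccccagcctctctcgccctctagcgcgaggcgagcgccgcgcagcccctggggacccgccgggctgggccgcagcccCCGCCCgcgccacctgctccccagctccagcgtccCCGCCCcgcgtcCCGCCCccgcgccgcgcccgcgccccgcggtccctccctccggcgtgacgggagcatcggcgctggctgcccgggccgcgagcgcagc

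The stretch between SLC25A40 and DBF4 held 29 CpG dinucleotides and 2 GC boxes, and no CCAAT box. Before the ABCB1 start there were 12 CpG, 2 CCAAT boxes and no GC box. The letters before RUNDC3B held 28 CpG, 2 GC boxes and 1 CCAAT box, and those before KIAA1324L held 37 CpG and 3 GC boxes. Over whole windows of 300 bases, ABCB1 had 16 CpG at this start and 1 at its upstream start, against a median of 14 over 35116 RefSeq windows. SLC25A40 had 47 CpG, KIAA1324L 45 at its upstream start and DBF4 44, more than 97.6%, 96.5% and 95.8% of all windows had. RUNDC3B had 32, DMTF1 29 and CROT 28. Low counts also occurred at expressed genes. CDK14 had 2 and 5 CpG and no GC box in either window. SRI had 0 CpG at its upstream and 37 at its downstream start, and KIAA1324L had 2 at its downstream start. A GC box occurred in 45% of all windows and a CCAAT box in 34.6%. The ETS motif CCGGAAGT (ACTTCCGG on the other strand), present in 4.14% of all windows, occurred in 1 window of the 10 genes, that of DMTF1. The TATA box (TATAAA, or TTTATA on the other strand), present in 11.5%, had 2 matches, both in 1 window of SRI. These matches describe the letters of the windows and were not tested as binding sites, and their part in transcript levels was not tested.

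The libraries held 25225828 to 47537926 reads in HRA cells, 22300023 to 66563328 in HRD cells and 20822709 to 58534264 in parental cells. Values are normalized read counts, that is reads of a gene over the library's size factor, and 1 read was worth 0.496 to 1.51. MPO, the myeloperoxidase gene and a defining marker of promyelocytes, had a mean of 264812 in HRA cells, 232664 in HRD cells and 295528 in parental cells. All 9 promyelocytic markers examined had reads, although ELANE, the neutrophil elastase gene, was near 0 with means of 1.59, 0.858 and 1.88 in HRA, HRD and parental cells. Summed markers of other cell types reached at most 40.6 for B cells, 31.1 for T cells, 1.499 for erythroid cells and 0.992 for fibroblasts in any library. The epithelial sum, nearly all of it KRT8, was 91.4 to 152 in HRA cells, 284 to 401 in HRD cells and 69.9 to 105 in parental cells, and its part in the results was not tested. In these bulk libraries, fewer cells with a transcript and less of it per cell cannot be told apart.

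ABCB1 and ABCB4, the transporter genes of the region, were at the limit of detection in all 3 groups. ABCB1 had 1, 0 and 0 reads in the HRA replicates, 2, 0 and 0 reads in the HRD replicates and no read in any parental replicate. In RPM, the gene's reads scaled to the reads of a group, this was 0.0100 in HRA cells (exact Poisson 95% interval 0.000254 to 0.0559) and 0.0170 in HRD cells (0.00206 to 0.0613). No parental read was seen, which allows up to 0.0281 RPM at a floor of 3 reads and 0.0345 by the exact Poisson 95% interval. These limits cover counting error only. Every group was at or under that floor, so no fold is given and ABCB1 could not be tested.

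ABCB4, whose product moves phosphatidylcholine across the canalicular membrane of hepatocytes and which lies next to ABCB1, had no read in HRA cells, 1 read in HRD cells (replicate 3) and none in parental cells. The HRD read corresponds to 0.00849 RPM (0.000215 to 0.0473). At the floor of 3 reads, 0 reads allow up to 0.0301 RPM in HRA cells and 0.0281 in parental cells. By the Poisson interval they allow up to 0.0370 and 0.0345. In RefSeq ABCB1 overlaps RUNDC3B and ABCB4 overlaps CROT on opposite strands. These overlaps are of whole genes, introns included, and exons were not compared. The libraries kept strand but it is not known whether the counting used it, so how reads from shared sequence were assigned is not known. The counts of the pairs lay far apart, with 210, 179 and 99 reads of RUNDC3B in HRA, HRD and parental cells and 727, 561 and 648 of CROT. Another pump gene, ABCC1, which lies on chromosome 16, stood at 44838 to 50748 in the HRD libraries, 1797 to 2039 in the HRA libraries and 1713 to 1940 in the parental libraries.

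**Figure D1:**
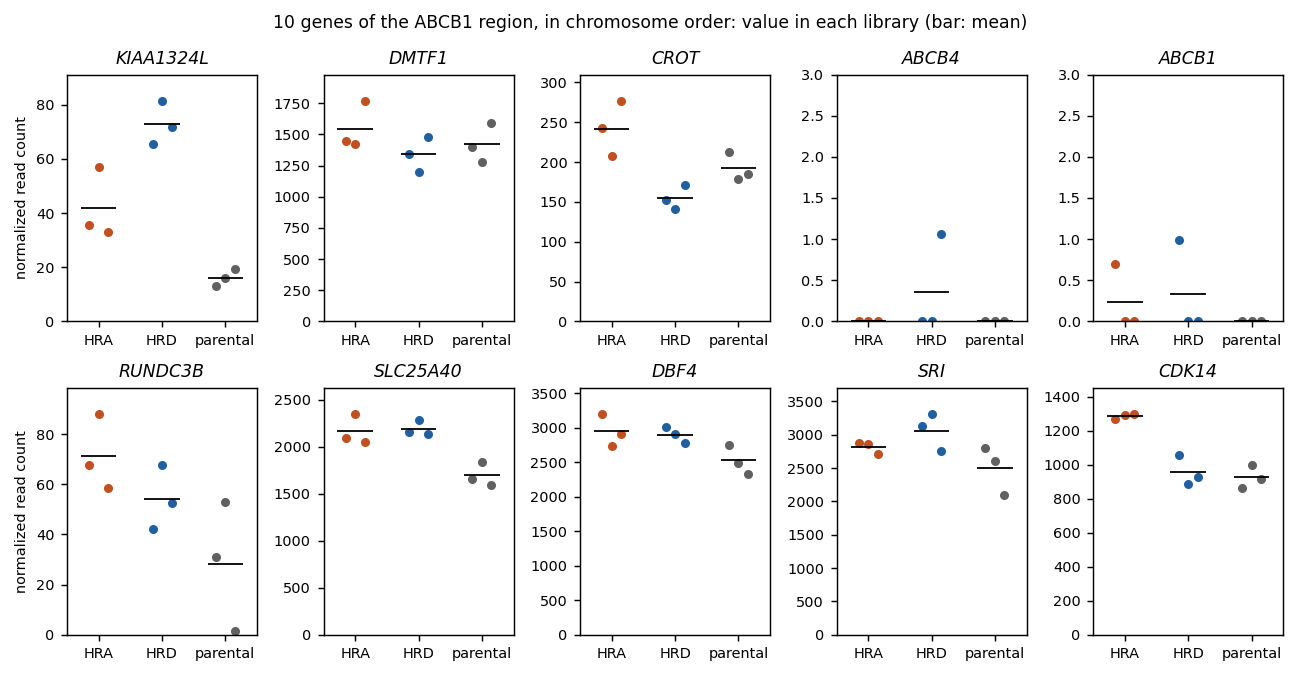
Normalized read count of each of the 10 genes in every library, in chromosome order, with 1 panel per gene; points are the 3 replicates of a group and bars their means. ABCB4 and ABCB1 stay at or below 1.07 in every library, KIAA1324L separates the 3 groups, and RUNDC3B has a single parental library at 1.499.

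Between the expressed neighbours the transcript level differed widely, as values per kilobase of merged exon show. SRI stood at 665 ± 20.9 per kilobase in HRA cells, 723 ± 66.6 in HRD cells and 591 ± 84.9 in parental cells (SD, n = 3, as in all such values). DBF4 stood at 643 ± 50.2, 632 ± 26.0 and 551 ± 46.4 per kilobase in HRA, HRD and parental cells, less than 1 SD below SRI in HRA and parental cells. SLC25A40 came next with 426 ± 31.3, 431 ± 16 and 333 ± 24.2 per kilobase in the same order of groups. CDK14 and DMTF1 followed, in an order that differed between groups. In HRA cells CDK14 stood at 188 ± 1.95 per kilobase and DMTF1 at 164 ± 20.4, in HRD cells at 140 ± 13 and 142 ± 14.8, which is within their spread, and in parental cells at 135 ± 9.75 and 151 ± 16.6. CROT stood at 48.6 ± 6.99 per kilobase in HRA cells, 31.1 ± 2.99 in HRD cells and 38.6 ± 3.63 in parental cells. RUNDC3B reached 15.2 ± 3.20, 11.5 ± 2.74 and 6.02 ± 5.46 per kilobase in HRA, HRD and parental cells. KIAA1324L was the lowest of the 8 expressed genes, at 5.15 ± 1.61, 8.97 ± 0.986 and 1.99 ± 0.406 per kilobase in HRA, HRD and parental cells. In HRD cells KIAA1324L and RUNDC3B differed by less than the SD of RUNDC3B.

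To ask whether the ABCB1 region changed in either resistant line, the 12569 genes that reached 10 in 3 or more of the 9 libraries were tested, 8 of the 10 genes among them. ABCB1 and ABCB4 did not pass that filter. All 8 that passed had at least 10 in every HRA and every HRD library, so none passed through 1 group alone. Genes were called at a limma adjusted p below 0.05, on log2(value + 1), over all tested genes. In HRA cells 3 of the 8 were higher than in parental cells and none was lower, where 9.13% of all tested genes were higher and 6.1% lower. Of the 602 tested genes of chromosome 7 outside the group, 21.4% were higher and 0.664% lower in HRA cells. In HRD cells 2 of the 8 were higher than in parental cells and none was lower, against 10.7% higher and 12% lower among all tested genes and 9.14% and 5.15% among the other chromosome 7 genes. The median log2 fold change of the 8 genes was 0.34 in HRA and 0.25 in HRD cells, beside −0.01 and 0.01 over all tested genes. Both comparisons share the parental libraries.

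KIAA1324L, which encodes a single-pass membrane protein, was higher in both resistant lines. Its value was 35.6, 56.8 and 32.9 in the HRA libraries, 65.5, 81.3 and 71.6 in the HRD libraries and 12.9, 15.9 and 19.5 in the parental libraries. No group overlapped another, with HRD highest and parental lowest. KIAA1324L rose 2.46-fold in HRA cells (log2 fold change 1.30 ± 0.28, SE, adjusted p = 0.0102) and 4.35-fold in HRD cells (2.12 ± 0.28, adjusted p = 3.18e-04). These folds rest on 120 reads in HRA, 253 in HRD and 49 in parental cells. Without replicate 2 of every group the HRA call was lost (1.06, adjusted p = 0.104, against 0.00247 to 0.104 over all alternatives). No alternative in which the gene was tested removed the HRD call, whose log2 fold change ran from 1.75 to 2.26. HRD cells were also above HRA cells (0.82 ± 0.28, adjusted p = 0.0430). That call was lost without HRA replicate 1 or 3 (adjusted p = 0.141 for both), HRD replicate 1, 2 or 3 (0.0654, 0.117 and 0.0880) or parental replicate 2 (0.0530), without replicate 2 of every group (0.0800) and with no filter on low values (0.102).

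SLC25A40 encodes a mitochondrial carrier, a relative of the glutathione importer SLC25A39. Its value was 2098, 2344 and 2047 in the HRA libraries, 2152, 2282 and 2133 in the HRD libraries and 1653, 1833 and 1598 in the parental libraries. Every resistant library was above every parental one, and the HRA and HRD libraries overlapped. SLC25A40 rose 1.28-fold in HRA cells (0.35 ± 0.09, adjusted p = 0.0186) and 1.29-fold in HRD cells (0.37 ± 0.09, adjusted p = 0.00948). The HRA call was lost without HRA replicate 1 or 2 (adjusted p = 0.0575 and 0.0886), without parental replicate 3 (0.0586) and without replicate 2 of every group (0.1). Between HRD and HRA cells the log2 difference was 0.02 with a 95% interval of −0.17 to 0.21 (adjusted p = 0.887).

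CDK14, a kinase that cyclin Y brings to the plasma membrane, where it phosphorylates the Wnt receptor LRP6, was higher in HRA cells than in both other groups. It stood at 1272, 1291 and 1298 in the HRA libraries, 1058, 887 and 929 in the HRD libraries and 865, 997 and 916 in the parental libraries. The HRA libraries lay above all others, while the HRD and parental libraries overlapped. CDK14 rose 1.39-fold in HRA over parental cells (0.48 ± 0.09, adjusted p = 0.00681). In HRD cells its log2 fold change over parental cells was 0.05 with a 95% interval of −0.16 to 0.25 (adjusted p = 0.770). The difference itself was tested, and HRD cells were below HRA cells by −0.43 ± 0.09 on the log2 scale (adjusted p = 0.00611). Leaving out any single library did not change these CDK14 calls, but without replicate 2 of every group the adjusted p of HRD against HRA was 0.0771.

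CROT, the peroxisomal carnitine octanoyltransferase that hands medium-chain acyl groups to carnitine, differed between the resistant lines. Its value was 242, 207 and 277 in the HRA libraries, 152, 142 and 171 in the HRD libraries and 213, 179 and 184 in the parental libraries. The HRD libraries lay below all others, and the HRA and parental libraries overlapped. HRD cells had 0.645 times the CROT of HRA cells (log2 fold change −0.63 ± 0.16, adjusted p = 0.0110), a call lost without HRA replicate 3 (−0.53, adjusted p = 0.0520). Against parental cells the log2 fold changes were 0.33 ± 0.16 in HRA (adjusted p = 0.179) and −0.31 ± 0.16 in HRD (adjusted p = 0.184), and neither passed.

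DBF4, the regulatory subunit of the CDC7 kinase that triggers the firing of replication origins, shares its start region with SLC25A40. It stood at 3194, 2738 and 2911 in the HRA libraries, 3012, 2903 and 2774 in the HRD libraries and 2754, 2491 and 2334 in the parental libraries. The lowest HRD library, at 2774, was just above the highest parental library, at 2754, and the HRA libraries overlapped with the parental ones. DBF4 did not pass in HRA cells (0.22 ± 0.09, adjusted p = 0.11) or HRD cells (0.20 ± 0.09, adjusted p = 0.129). Same-numbered HRA and parental libraries deviated together, and when that number entered the fit as a block DBF4 passed in HRA cells (adjusted p = 0.0464, and 0.0464 to 0.851 over all alternatives). With the block 2774 genes in all were called in HRA cells, against 1915 without it.

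SRI encodes sorcin, a calcium-binding penta-EF-hand protein that acts on the ryanodine receptor and on calcium pumps of the endoplasmic reticulum. It stood at 2884, 2856 and 2718 in the HRA libraries, 3129, 3308 and 2755 in the HRD libraries and 2800, 2606 and 2103 in the parental libraries. Both resistant lines overlapped with parental cells, in which replicate 3 was lowest. SRI did not pass in HRA cells (0.18 ± 0.11, adjusted p = 0.284) or HRD cells (0.30 ± 0.11, adjusted p = 0.0728). Without parental replicate 1 it passed in HRD cells (0.38, adjusted p = 0.0371).

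DMTF1, a cyclin D-binding transcription factor that activates the ARF promoter of CDKN2A, did not pass in any comparison. Its value was 1450, 1422 and 1768 in the HRA libraries, 1344, 1199 and 1477 in the HRD libraries and 1401, 1282 and 1592 in the parental libraries, and all 3 groups overlapped. The log2 fold change was 0.12 in HRA cells (95% interval −0.14 to 0.38, adjusted p = 0.534) and −0.09 in HRD cells (−0.35 to 0.17, adjusted p = 0.647).

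RUNDC3B, which encodes a RUN domain protein, had the largest fitted change in HRA cells and the largest error of the 8 genes in every comparison. Its value was 67.7, 87.9 and 58.5 in the HRA libraries, 42.2, 67.8 and 52.4 in the HRD libraries and 30.9, 52.8 and 1.499 in the parental libraries. The last of these is a single read, beside 55 and 43 reads in parental replicates 1 and 2. HRA libraries were all above the parental ones, and HRD libraries overlapped with them. The log2 fold change was 2.14 ± 0.85 in HRA cells (adjusted p = 0.115) and 1.74 ± 0.85 in HRD cells (adjusted p = 0.172), and neither passed. Without parental replicate 3 the values were 0.79 (adjusted p = 0.135) and 0.39 (adjusted p = 0.439). Without parental replicate 2, which leaves the single-read library in place, they were 3.00 (adjusted p = 0.0340) and 2.60 (adjusted p = 0.0416). RUNDC3B was 1 of 12 genes, among 11838 whose other parental replicates both had at least 10, that lay more than 8 times below both of them in parental replicate 3. In the other 8 libraries there were 0 to 6 such genes.

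**Figure D2:**
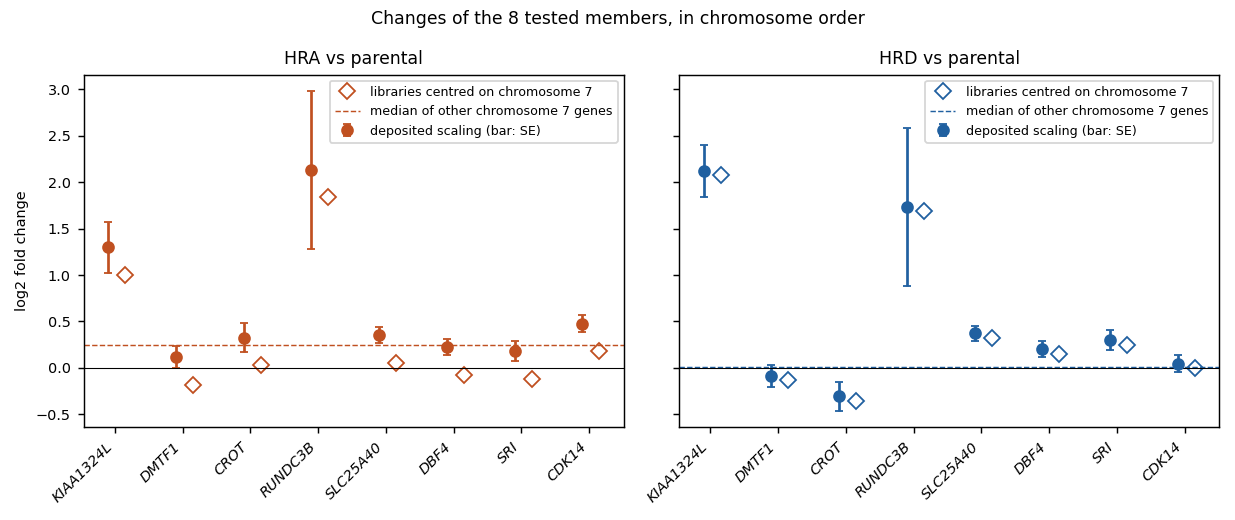
Log2 fold change of the 8 tested genes in HRA over parental cells (left) and HRD over parental cells (right), in chromosome order; filled points with SE bars use the deposited scaling, open diamonds libraries centred on chromosome 7, and the dashed line is the median of the other tested chromosome 7 genes. In HRA cells the diamonds of DMTF1, DBF4 and SRI lie below 0 and only those of KIAA1324L and RUNDC3B reach 1.0, while in HRD cells points and diamonds nearly coincide.

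The region was then read against the rest of its chromosome. In HRA cells the 602 tested chromosome 7 genes outside the group had a median log2 fold change of 0.25, with 129 higher and 4 lower, and the median of chromosome 7 was the third highest of all chromosomes. In HRD cells the same genes had a median of 0.01, with 55 higher and 31 lower. Centring each library on the median of these genes moved every log2 fold change by −0.30 in HRA, −0.05 in HRD and 0.25 in HRD against HRA. Genes of other chromosomes are moved by the same amount, so for them a call lost to this shift is no measure of its robustness. Relative to that shift KIAA1324L was the only 1 of the 8 called in HRA cells (1.0, adjusted p = 0.0201). CDK14 was left at 0.18 (adjusted p = 0.265) and SLC25A40 at 0.05 (adjusted p = 0.734). DMTF1, DBF4 and SRI were below 0 on this scale, at −0.18, −0.07 and −0.12, and none of them passed.

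The same centring left KIAA1324L in HRD cells at 2.07 (adjusted p = 3.25e-04) and SLC25A40 at 0.32 (adjusted p = 0.0685). Between HRD and HRA cells it ended the calls of CROT (−0.38, adjusted p = 0.0668) and CDK14 (−0.18, adjusted p = 0.275). It kept that of KIAA1324L (1.07, adjusted p = 0.0137) and gave SRI a call (0.37, adjusted p = 0.0286). A centring on the median deviation of the same genes, chosen after seeing the data, also left KIAA1324L as the only call in HRA cells (1.05, adjusted p = 0.0140). With it SLC25A40 was called in HRD cells over parental cells (0.35, adjusted p = 0.0112) and over HRA cells (0.24, adjusted p = 0.0355), and SRI over HRA cells (0.34, adjusted p = 0.0165). Whether the chromosome has a part in the changes of the 8 genes was not tested beyond these values.

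The genes were also counted by non-overlap of the groups. In HRA cells 4 of the 8 genes had all libraries above all parental libraries and none below, where 19.3% of all tested genes and 46.3% of the other chromosome 7 genes were above and 18.7% and 2.33% below. In HRD cells 3 were above and 1, CROT, was below, where 17.1% of all tested genes were above and 18.2% below, beside 14.6% and 12% of the other chromosome 7 genes. Between HRD and HRA cells KIAA1324L was above and CROT and CDK14 were below, where 22.8% of all tested genes were above and 24.2% below, beside 6.98% and 43.7% of the other chromosome 7 genes. By limma 1 of the 8 genes was higher and 2 were lower in HRD than in HRA cells, against 13.9% higher and 16.2% lower over all tested genes, and 3.99% higher and 28.2% lower over the other chromosome 7 genes. The median of the 8 in HRD over HRA cells was −0.11.

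**Figure D3:**
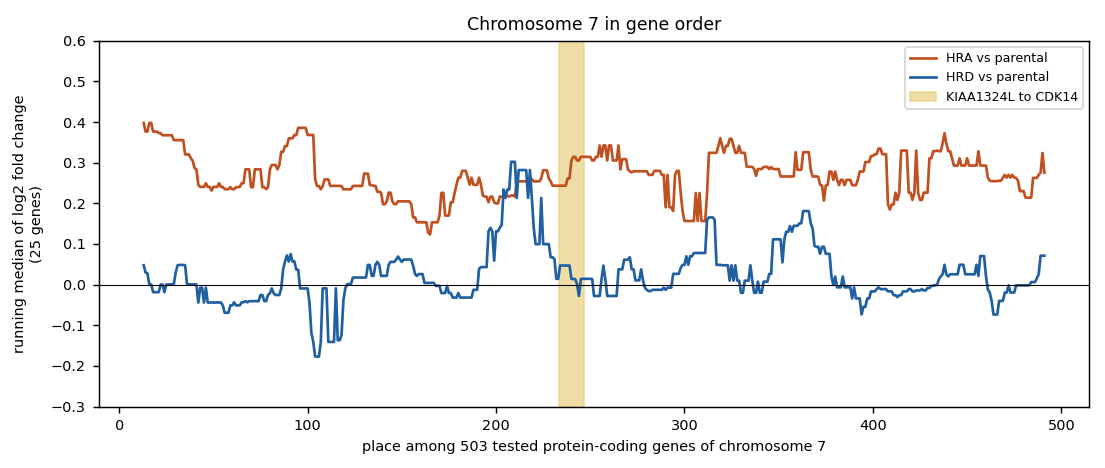
Running median of the log2 fold change over 25 neighbouring genes along the 503 tested protein-coding genes of chromosome 7, for HRA over parental and HRD over parental cells; the shaded band spans KIAA1324L to CDK14. The HRA line stays above 0 along the whole chromosome and shows no peak over the band, and the HRD line is near 0 there.

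Along the chromosome, windows of 25 neighbouring protein-coding genes had running medians of 0.12 to 0.40 in HRA cells over all 479 windows. Windows centred on the stretch from KIAA1324L to CDK14, places 234 to 246 of 503 tested genes, had 0.24 to 0.31. In HRD cells the running medians ran from −0.18 to 0.30 over the chromosome and from −0.03 to 0.05 over the stretch. The windows over the stretch are part of the 479, so their range lies inside that of the chromosome by construction. A window of 25 genes also reaches beyond the stretch.

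Between the outermost of the 10 genes the table held 17 protein-coding genes, 13 of them tested. The other tested ones were TMEM243, ADAM22, CFAP69, GTPBP10 and CLDN12. None of these 5 passed in HRA cells, where their log2 fold changes ran from 0.13 to 0.34 with a median of 0.31. TMEM243, a small membrane protein gene between DMTF1 and CROT, stood at 671, 603 and 729 in the HRA libraries, 711, 676 and 713 in the HRD libraries and 531, 477 and 589 in the parental libraries. It rose in HRD cells (0.40 ± 0.11, adjusted p = 0.0240) and not past the threshold in HRA cells (0.33 ± 0.11, adjusted p = 0.0688). ZNF804B and STEAP2 lie in the same stretch and had too few reads to test, with 6 and 0 in HRA, 2 and 4 in HRD and 2 and 6 in parental cells. Among tested protein-coding genes the nearest before KIAA1324L, SEMA3A, had a log2 fold change of −0.25 in HRA and −0.76 in HRD cells. The nearest tested gene after it, DMTF1, had one of 0.12 and −0.09. Untested genes may lie between them. The TMEM243 call was lost without parental replicate 1 or 2 or HRD replicate 3, with an adjusted p of up to 0.0897, and with a chromosome 7 centring.

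Among the 15 tested protein-coding genes before the stretch, 2 were higher in HRA cells, the hepatocyte growth factor gene HGF (2.18 ± 0.37, adjusted p = 0.00308) and the zona pellucida gene ZP3 (1.26 ± 0.32, adjusted p = 0.0213). In HRD cells none of them was higher and the semaphorin gene SEMA3A was lower (−0.76 ± 0.19, adjusted p = 0.0140). Among 14 genes after the stretch, 7 were higher in HRA cells, beside 21.4% of the other chromosome 7 genes and 9.13% of all tested genes. The 7 were the cell cycle kinase gene CDK6 (1.02 ± 0.14, adjusted p = 0.00104), SAMD9L (0.60), MTERF1 (0.51), AKAP9 (0.51), GATAD1 (0.38), BET1 (0.34) and ANKIB1 (0.31). In HRD cells CDK6 (1.22 ± 0.14, adjusted p = 1.37e-04) and SAMD9L (0.39, adjusted p = 0.0453) were higher and none was lower. CDK6 stood at 5292 ± 436 in HRA cells, 6157 ± 1356 in HRD cells and 2600 ± 151 in parental cells. The calls of HGF, MTERF1, CDK6 and SEMA3A held without any single library. In HRA cells those of ZP3, SAMD9L, AKAP9, GATAD1, BET1 and ANKIB1 were each lost without HRA replicate 1 (adjusted p of up to 0.116 without this or another library), and in HRD cells that of SAMD9L on leaving out any single library (up to 0.139). With one or both of the chromosome 7 centrings the HRA calls of SAMD9L, MTERF1, AKAP9, GATAD1, BET1 and ANKIB1 and the HRD call of SAMD9L were lost, while those of HGF, ZP3, CDK6 and SEMA3A were not.

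**Figure D4:**
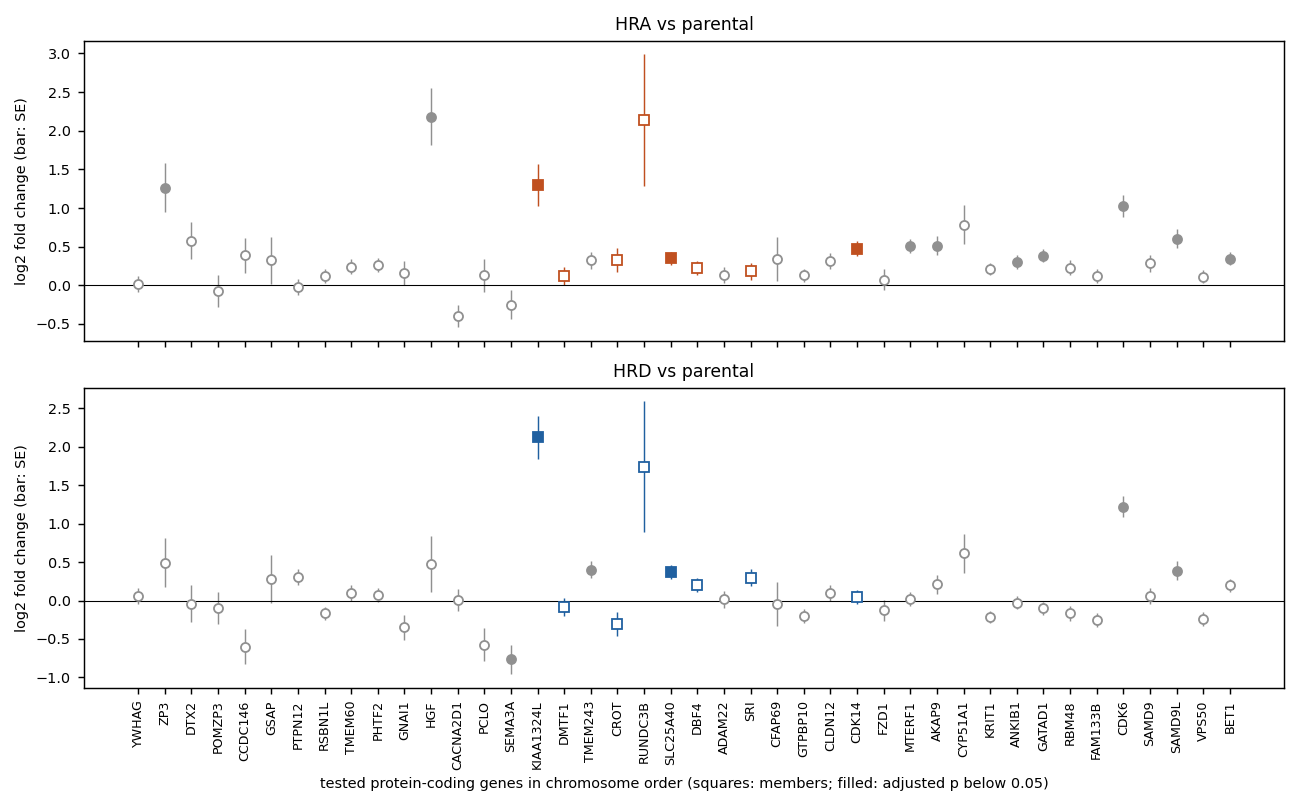
Log2 fold change with SE bars of the 8 tested genes (squares), the 5 tested genes between them and 15 tested protein-coding genes before and 14 after them (circles), in chromosome order, for HRA over parental cells (above) and HRD over parental cells (below); filled symbols passed at an adjusted p below 0.05. In HRA cells most genes lie slightly above 0 with KIAA1324L, RUNDC3B, HGF, ZP3 and CDK6 standing out, and in HRD cells KIAA1324L, RUNDC3B and CDK6 stand out over values near 0.

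A wider list of genes of band q21 and its borders held 24 tested genes outside the group. In HRA cells 6 were higher and none lower, with a median of 0.25, and in HRD cells 2 were higher and 1 lower, with a median of −0.01. Of all tested genes 9.13% were higher and 6.1% lower in HRA, and 10.7% and 12% in HRD cells. Of the other chromosome 7 genes 21.4% were higher and 0.664% lower in HRA, and 9.14% and 5.15% in HRD cells. Between HRD and HRA cells none was higher and 11 were lower, with a median of −0.33. There 16.2% of all tested genes and 28.2% of the other chromosome 7 genes were lower. The 11 were HGF (−1.71), PCLO (−0.70), GNAI1 (−0.51), MTERF1 (−0.50), GATAD1 (−0.48), KRIT1 (−0.43), RBM48 (−0.39), FAM133B (−0.37), ANKIB1 (−0.33), GTPBP10 (−0.33) and RSBN1L (−0.29). With one or both of the chromosome 7 centrings all of these calls but that of HGF were lost. Those of PCLO, GNAI1, RSBN1L, GTPBP10, FAM133B and ANKIB1 were also lost without 1 or more single libraries (adjusted p of up to 0.128), and the other 5 held. CROT and CDK14 moved in that direction too, while KIAA1324L moved the other way. The other chromosome 7 genes had a median of −0.22 in HRD over HRA cells.

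The rest of the ABCB family was read next. Of 8 family genes outside the region, 6 were tested, with medians of 0.15 in HRA and −0.07 in HRD cells, and 1 was higher and 1 lower in HRA, none higher and 2 lower in HRD cells. Over all tested genes 9.13% were higher and 6.1% lower in HRA, and 10.7% and 12% in HRD cells. TAP1, a peptide transporter of antigen presentation, was higher in HRA cells (0.48 ± 0.14, adjusted p = 0.0384) and had a log2 fold change of 0.00 in HRD cells. ABCB10, a transporter of the mitochondrial inner membrane, was lower in both lines, at 5021 ± 386 in HRA cells, 4873 ± 545 in HRD cells and 7235 ± 243 in parental cells (−0.53 ± 0.09 and −0.58 ± 0.09, adjusted p = 0.00410 and 0.00150). The lysosomal peptide transporter gene ABCB9 was lower in HRD cells, at 19.0 ± 2.97, against 36.0 ± 4.76 in parental cells (−0.89 ± 0.25, adjusted p = 0.0258). Against HRA cells ABCB9 (−1.22) and TAP1 (−0.47) were lower in HRD cells. The ABCB10 calls held without any single library, while that of TAP1 in HRA was lost on leaving out a single HRA replicate or parental replicate 1 or 3 (adjusted p of up to 0.158) and that of ABCB9 in HRD without HRD replicate 2 or 3 or parental replicate 1 or 3 (up to 0.0815). The TAP1 call in HRA was also lost with a chromosome 7 centring. So was that in HRD against HRA cells, which was lost without HRD replicate 1 or 3 or HRA replicate 2 as well (up to 0.0968). ABCB6, ABCB8 and TAP2 did not pass in any comparison. The bile salt pump gene ABCB11 had 4 reads in HRA, 52 in HRD and 1 in parental cells and ABCB5 had 0, 0 and 1, and neither was tested.

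The partners of the expressed genes were read from lists of their pathways. Over all tested genes 9.13% were higher and 6.1% lower in HRA cells, and 10.7% and 12% in HRD cells. In HRD against HRA cells 13.9% were higher and 16.2% lower. The counts of each list that follows stand beside these shares, and no list was tested as a set. CDC7, the kinase that DBF4 activates, stood at 2511, 2626 and 2593 in the HRA libraries, 2398, 2251 and 2481 in the HRD libraries and 2381, 2550 and 2635 in the parental libraries. It did not pass in HRA (0.03, adjusted p = 0.807) or HRD cells (−0.09, adjusted p = 0.456). Of 20 tested genes of that kinase and the helicase it acts on, 4 were higher and none lower in HRA cells, with a median of 0.07. They were the helicase subunit genes MCM4 (0.51) and MCM7 (0.46), GINS4 (0.59) and the checkpoint adaptor gene CLSPN (0.49). In HRD cells none was higher and 3 were lower, with a median of −0.04. DBF4B, the second activator of CDC7, was among them with 651 ± 68.7 in HRD cells, against 1407 ± 55.2 in parental cells (−1.12 ± 0.10, adjusted p = 1.59e-05), beside GINS1 (−0.61) and TIMELESS (−0.38). Against HRA cells 8 of the 20 were lower in HRD cells, MCM10 (−0.27) and the 7 genes just named. The MCM7 call in HRA was lost on leaving out any single HRA replicate (adjusted p of up to 0.0767), and the other calls of the list against parental cells held without any single library. The HRA calls of MCM4, MCM7, GINS4 and CLSPN were lost with one or both of the chromosome 7 centrings. Of these only MCM7 lies on chromosome 7, and the centrings moved the others by the same amount. Between HRD and HRA cells the calls of MCM10, MCM7, CLSPN and TIMELESS were lost with such a centring, and those of MCM10 and MCM7 also on leaving out any single HRA replicate or HRD replicate 2 or 3 (adjusted p of up to 0.119 and 0.0804).

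SLC25A39, the mitochondrial glutathione importer related to SLC25A40, stood at 2329, 2294 and 2244 in the HRA libraries, 1231, 1515 and 1494 in the HRD libraries and 2771, 1834 and 2029 in the parental libraries. It was lower in HRD than in parental cells (−0.63 ± 0.14, adjusted p = 0.00756), where SLC25A40 was higher, and did not pass in HRA cells (0.07, adjusted p = 0.759). Of 11 tested genes of mitochondrial glutathione import and use, 1 was higher (the lipid peroxidase gene GPX4, 0.56) and 1 lower (the glutaredoxin gene GLRX2, −0.58) in HRA cells, with a median of −0.08. In HRD cells SLC25A39 and the peroxiredoxin gene PRDX3 (−0.29) were lower and none was higher, with a median of 0.05. SLC25A39 and the dicarboxylate carrier gene SLC25A10 (−0.67) were lower in HRD than in HRA cells. The SLC25A39 and PRDX3 calls held without any single library, and those of GPX4 and GLRX2 were lost without HRA replicate 2 or 3 among others (adjusted p of up to 0.124 and 0.0890). The GPX4 call was also lost with a chromosome 7 centring. So was that of SLC25A10 between HRD and HRA cells, which was lost on leaving out any single HRA replicate or HRD replicate 1 or 3 as well (up to 0.130).

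CROT makes acylcarnitines that leave the peroxisome for the mitochondria. Of 21 tested genes of peroxisomal oxidation and carnitine acyl transfer, 5 were higher and none lower in HRA cells, with a median of 0.02. Over all tested genes 9.13% were higher and 6.1% lower there. The 5 were PEX6 (0.71), the mitochondrial carnitine palmitoyltransferase gene CPT2 (0.45), PEX2 (0.38), SCP2 (0.32) and HSD17B4 (0.31). In HRD cells 4 were higher and 1 lower, with a median of 0.02, beside 10.7% and 12% of all tested genes. The higher ones were ACOX2 (2.46), PEX6 (0.61), CPT2 (0.56) and HSD17B4 (0.40). ACOX2 was a low gene, at 30.2 ± 1.39 in HRD and 6.09 ± 5.56 in parental cells, from 109 and 19 reads. The lower one was CPT1A, the carnitine palmitoyltransferase of the outer mitochondrial membrane, which stood at 194 ± 39.0 in HRD cells, against 2407 ± 243 in parental cells (−3.64 ± 0.13, adjusted p = 9.82e-09). Against HRA cells CPT1A and PEX14 (−0.27) were lower in HRD cells. The PEX14 call was lost on leaving out any single HRA replicate or HRD replicate 1 or 3 (adjusted p of up to 0.108) and with a chromosome 7 centring. In HRA cells the PEX6 call held without any single library, and those of CPT2, PEX2, SCP2 and HSD17B4 were lost without HRA replicate 2 among others (adjusted p of up to 0.121). With one or both of the chromosome 7 centrings the HRA calls of CPT2, PEX2, SCP2 and HSD17B4 were lost and that of PEX6 was not. In HRD cells all 5 calls of the list held without any single library. CRAT, the carnitine acetyltransferase gene, had at most 2.44 in any library and was not tested.

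CCNY, the cyclin that binds CDK14, stood at 1412, 1389 and 1462 in the HRA libraries, 1787, 1464 and 1405 in the HRD libraries and 1655, 1607 and 1385 in the parental libraries, and did not pass in HRA (−0.12, adjusted p = 0.469) or HRD cells (0.00, adjusted p = 0.997). Of 12 tested genes of related kinases, membrane cyclins and their substrates, CCND3 (−0.44) was lower and none was higher in HRA cells, with a median of −0.13. In HRD cells CCNYL1 (0.50), a paralogue of CCNY, was higher and CDK17 (−0.36), LRP6 (−0.40) and CAPRIN2 (−0.80) were lower, with a median of 0.01. CCND3 (0.74), CCNYL1 (0.48) and CDK16 (0.40) were higher in HRD than in HRA cells, where CDK14 was lower. Without HRD replicate 2 or parental replicate 2 the CDK17 and LRP6 calls in HRD cells were lost (adjusted p of up to 0.0547 and 0.131), and without HRA replicate 1 or 3 or parental replicate 2 the CCND3 call in HRA cells (up to 0.0897).

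Around SRI, 13 genes of penta-EF-hand proteins and calcium release were tested. Its relative GCA, grancalcin of neutrophils, stood at 654 ± 20.2 in HRA cells, 450 ± 119 in HRD cells and 936 ± 34.6 in parental cells and was lower in both lines (−0.52 and −1.08, adjusted p = 0.0428 and 5.52e-04). PDCD6 (−0.83) and the calcium pump gene ATP2A2 (−0.31) were also lower in HRA cells, and no gene of the list was higher in either line. The list medians were −0.04 in HRA and 0.02 in HRD cells. The GCA call in HRD cells held without any single library, while in HRA cells the GCA, PDCD6 and ATP2A2 calls were lost without HRA replicate 1 or 2 among others (adjusted p of up to 0.120, 0.0749 and 0.151). PDCD6 (1.09) and CAPN2 (0.38) were higher and GCA (−0.57) and ITPR2 (−0.39) lower in HRD than in HRA cells. Of these the GCA and ITPR2 calls were lost with a chromosome 7 centring, and that of GCA also without HRA replicate 1 or HRD replicate 1 or 3 (adjusted p of up to 0.0618).

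DMTF1 links D cyclins to ARF, and 11 further genes of that circuit were tested. The G1 cyclin gene CCND1 stood at 549 ± 164 in HRA cells, 2362 ± 362 in HRD cells and 77.4 ± 34.0 in parental cells and was higher in both lines (2.85 and 4.99, adjusted p = 1.54e-04 and 5.46e-07). CDK6 and TBX2 (1.04 in HRA and 1.36 in HRD) were higher in both lines too. CCND3 was lower in HRA cells, and CCND2 (−2.08), E2F1 (−0.60), MDM2 (−0.44) and CDK4 (−0.32) were lower in HRD cells. The list medians were −0.11 in HRA and 0.07 in HRD cells, and genes of the list moved in both directions. The CDK4 call was lost on leaving out any 1 of 8 libraries (adjusted p of up to 0.155) and that of TBX2 in HRA without HRA replicate 1 (0.0619), and the CCND1, CCND2, E2F1 and MDM2 calls against parental cells held. CCND1 (2.14) and CCND3 were higher and CCND2 (−1.69), E2F1 (−0.84) and MDM2 (−0.33) lower in HRD than in HRA cells. The MDM2 call in that comparison was lost without HRA replicate 1 or 3 or HRD replicate 2 (adjusted p of up to 0.0758) and with a chromosome 7 centring.

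Across the 9 libraries the profiles of the genes, as log2(value + 1) centred on each gene's own mean, differed least between DBF4 and SRI, with a root-mean-square difference of 0.11. SLC25A40 differed from SRI by 0.13 and from DBF4, with which it shares its start region, by 0.14. The largest differences were those of RUNDC3B, from 1.33 to 1.53. In the mean profile of the 8 genes the HRA libraries stood at 0.21 to 0.31, the HRD libraries at 0.12 to 0.19 and the parental libraries at −0.27, −0.17 and −0.74. The last, parental replicate 3, includes the single-read RUNDC3B value. The 5 other genes most like this profile, by root-mean-square difference over 9 libraries, were LGALS9 (0.08), PCTP (0.10), EMP3 (0.11), STYXL1 (0.12) and CD81 (0.12). Of these STYXL1 lies on chromosome 7. LGALS9, which encodes galectin-9, stood at 2512 in HRA cells, 2219 in HRD cells and 1493 in parental cells (means).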

How the data were processed

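Per the labels' protocols, messenger RNA of HRA, HRD and parental HL-60 cells went into stranded libraries, with 3 biological replicates a group. The submitters' processing notes name hg19, HTSeq 0.11.1, Cufflinks 2.2.1, Picard, DESeq2, Bowtie2 2.3.5.1 and TopHat2 2.1.1. Their roles and order, the annotation and the strand setting are not given in the sources used here. The deposited signal is a gene's read count over the library's size factor. Its values show this: in each library 100% were whole multiples of the value of 1 read (tolerance 0.001), and size factors computed anew from the recovered reads matched to rounding error.

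The test took the 12569 genes that reached 10 in 3 or more libraries, which hold 99.97% of the reads. Values were taken as log2(value + 1), which understates folds of low genes, and fitted in 1 limma 3.58.1 model over 9 libraries (R 4.3.3, variance trend, Benjamini-Hochberg threshold 0.05). With 3 against 3 libraries the smallest p of an exact permutation test is 0.1. Alternatives included edgeR 4.0.16 and DESeq2 1.42.0 on the recovered reads, which called 1924 and 2366 genes in HRA, 2852 and 3144 in HRD and 3800 and 4105 in HRD against HRA. Counts of replicates differed 15.3 to 60.3 times more than counting error (chi-square per degree of freedom), so none was a repeated library. The test was also run on simulated counts with randomly placed changes. That simulation held no shift of a whole chromosome, so it cannot show how the test behaves under one.

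Same-numbered HRA and parental libraries had deviations that correlated at 0.22, 0.38 and 0.14, and a block by number was fitted as an alternative over all 9 libraries. The values were −0.08, 0.26 and 0.29 for HRD and parental and −0.03, 0.41 and 0.23 for HRD and HRA libraries. The genes and lists were chosen with earlier results of these data known. Besides the 10 genes, named genes are those of the pathway lists that passed, the ABCB family, 5 direct partners, tested neighbours and the 5 genes of most alike profile. Some genes of these lists are not reported here, and counts and medians of the lists leave them out. Gene order, names and start windows came from RefSeq tables of GRCh38.p14, matched by symbol for 19654 genes (1054 by an older symbol), and no gene coordinates were taken from it for the counts, which were made on another build. Exon lengths came from a GENCODE annotation.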

Additional observations from a re-analysis of the deposited data

Results flagged for a closer look

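KIAA1324L, CDK14 and CROT are listed because HRD and HRA cells differed when that difference itself was tested in the limma model. Each line was grown with its own drug, so resistance and drug cannot be told apart there. In that comparison 13.9% of all tested genes were higher and 16.2% lower, beside 3.99% and 28.2% of the other chromosome 7 genes. KIAA1324L was higher in HRD than in HRA cells by 0.82 on the log2 scale, in 3 of 3 HRD libraries over every HRA library (adjusted p = 0.0430). CDK14 differed by −0.43 (adjusted p = 0.00611) and CROT by −0.63 (adjusted p = 0.0110), with 3 of 3 HRD libraries below every HRA library for both. On libraries centred on chromosome 7 these differences were 1.07, −0.18 and −0.38, and only that of KIAA1324L passed.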

How the results depend on the processing

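Over 549 recomputed log2 fold changes of the 8 tested genes, 516 kept their side of the threshold, 24 lost a call, 9 gained one and 0 called values changed sign. In HRA over parental cells 3 of the 8 genes were called, and 1 with libraries centred on chromosome 7, 1 with the centring on its median deviation chosen after seeing the data, and 1 without replicate 2 of all groups. The 1915 genes called there became 4963 (422 higher, 4541 lower), 4784 (538 higher, 4246 lower) and 712 in these settings, and 904 to 2317 without a single library. In HRD over parental cells 2 genes were called, and 1 with a mean of at least 50, a limit that KIAA1324L misses, and 1 with the chromosome 7 centring. The 2863 genes called there became 1470 without replicate 2 of all groups. In HRD over HRA cells 3 genes were called, 1 without replicate 2 of all groups and 1 to 3 without a single library, the lowest without HRA replicate 3. The 3787 genes called there became 1825 without replicate 2 of all groups and 2391 to 3933 without a single library. The chromosome 7 centrings moved the split of that comparison from 1749 higher and 2038 lower to 4153 and 762, and to 4246 and 929. Centring on all tested genes gave 2055 higher and 1649 lower there, and 954 higher and 907 lower in HRA over parental cells, where the deposited scaling gave 1148 and 767. Of 104 calls of named genes outside the 8, 37 held in every alternative, 44 were lost without 1 or more single libraries, 45 with a chromosome 7 centring and 0 changed sign. Those centrings move genes of every chromosome alike, so such a loss off chromosome 7 is no sign of a fragile call. The settings without replicates test fewer samples, and the cause of the other changes was not tested.

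With the replicate number as a block 4 of the 8 genes were called in HRA over parental cells (2774 genes in all), 3 in HRD over parental cells (3639) and 4 in HRD over HRA cells (4673). The calls added were DBF4 in HRA cells, SRI in HRD cells (adjusted p = 0.0197) and DMTF1 in HRD against HRA cells (−0.20, adjusted p = 0.0489), and no other call of the 8 genes changed. Deviations of HRD libraries correlated with same-numbered parental and HRA libraries in replicate 2 (0.26 and 0.41) and replicate 3 (0.29 and 0.23). In replicate 1 they did not (−0.08 and −0.03). ABCB1 and ABCB4 had 0 to 2 reads a group, out of 99722263 reads in HRA, 117830469 in HRD and 106806092 in parental cells. KIAA1324L rests on 49 parental reads. RUNDC3B had 99 parental reads, 1 of them in parental replicate 3, and without that library its log2 fold change in HRA cells was 0.79, against 2.14 with it.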
